A study of Mus musculus with 7 samples.

Results

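This account covers 9 genes of cell cycle control, the inhibitors Cdkn1c, Cdkn1b, Cdkn2a, Cdkn2b and Cdkn2c, the cyclins Ccnd1, Ccnd2 and Ccne1, and the checkpoint kinase Chek2. All 9 had a row among the 20343 genes of the count table, matched by gene symbol. Messenger RNA was sequenced from apical heart muscle of 4 untreated mice (control hearts) and 3 mice that had received human CD4+ T cells 6 weeks earlier (transferred hearts). Every animal was NSG-DR1, written NSG-DRB1*0101 in the strain label. NSG mice are NOD mice with the Prkdc scid and Il2rg null mutations, so both groups lacked mature T, B and natural killer cells of their own, and the DR1 transgene supplies a human class II molecule. The Prkdc mutation, shared by both groups, impairs repair of DNA double-strand breaks. The ages and sex of the mice are not given in the sources used here, and the labels do not give the source of the T cells beyond human CD4+.

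Cell division starts when D-type cyclins with CDK4 or CDK6, followed by cyclin E with CDK2, phosphorylate the retinoblastoma protein and release E2F factors. INK4 inhibitors (Cdkn2a, Cdkn2b, Cdkn2c) block CDK4 and CDK6, and Cip/Kip inhibitors (Cdkn1b, Cdkn1c) block cyclin-CDK2 complexes more broadly. Chek2 is activated by DNA double-strand breaks and acts on p53 and CDC25 phosphatases. Most adult heart muscle cells have left the cell cycle, and p16, a product of Cdkn2a, is widely used as a marker of senescence.

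Cdkn1c and Chek2 were chosen by their p-value, since they passed an adjusted p-value of 0.05 in the comparison of transferred with control hearts (edgeR quasi-likelihood test, Benjamini-Hochberg over 7667 genes). Their fold changes are therefore a description, with no test. The 7 other genes were added as arrest and cyclin genes related to them, with their values known. By p-value, Cdkn1c was 7th and Chek2 15th of 7667 genes, and both had an adjusted p-value of 0.0384 in edgeR. Just inside the threshold was Mrc1, also at 0.0384, and just outside it was Gm15448, at an edgeR adjusted p-value of 0.0515. The nearest of the other cell cycle genes was Cdkn2b, at an edgeR adjusted p-value of 0.660. Thus 2 of the 8 genes with enough counts to be tested passed, against 0.235% of all tested genes. The choice fixed that count.

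Promoter windows are shown for Chek2, which starts beside another gene, and for Cdkn2a, whose single row of counts joins transcripts from a pair of start sites. They hold 250 bases before and 50 after an annotated start, from RefSeq (GRCm38.p6), printed in the direction of transcription. Capitals mark E2F motifs (TTTCCCGC or TTTGGCGC) and CCAAT boxes (CCAAT) found on either strand. The first Cdkn2a window belongs to the upstream start and the other to the downstream start.
Chek2, chromosome 5, 110839733 to 110840032, plus strand: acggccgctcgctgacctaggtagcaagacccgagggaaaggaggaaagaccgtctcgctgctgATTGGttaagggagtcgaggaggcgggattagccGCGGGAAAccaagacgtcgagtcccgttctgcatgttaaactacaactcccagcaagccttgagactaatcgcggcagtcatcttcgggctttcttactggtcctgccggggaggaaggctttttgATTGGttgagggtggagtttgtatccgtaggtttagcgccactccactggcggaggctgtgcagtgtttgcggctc
Cdkn2a upstream, chromosome 4, 89294570 to 89294869, minus strand: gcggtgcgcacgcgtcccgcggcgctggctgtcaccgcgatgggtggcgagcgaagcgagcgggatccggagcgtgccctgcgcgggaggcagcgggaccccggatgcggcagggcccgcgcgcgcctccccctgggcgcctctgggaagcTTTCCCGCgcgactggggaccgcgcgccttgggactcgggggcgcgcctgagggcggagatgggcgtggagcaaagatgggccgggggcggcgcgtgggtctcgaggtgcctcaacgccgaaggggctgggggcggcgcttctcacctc
Cdkn2a downstream, chromosome 4, 89282143 to 89282442, minus strand: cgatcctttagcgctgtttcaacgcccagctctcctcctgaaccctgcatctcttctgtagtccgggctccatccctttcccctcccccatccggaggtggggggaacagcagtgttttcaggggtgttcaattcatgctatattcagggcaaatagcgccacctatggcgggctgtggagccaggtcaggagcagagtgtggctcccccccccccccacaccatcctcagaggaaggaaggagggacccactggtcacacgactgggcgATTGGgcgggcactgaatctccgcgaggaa

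The RefSeq table held windows for 6 of the 9 genes, 8 windows in all, and none for Cdkn1c, Ccnd1 or Ccnd2. An E2F motif was present in 1 Chek2 window and in the upstream Cdkn2a window, and in 1.56% of all 32851 windows. CCAAT boxes were more common, at 37.4% of all windows, with 2 matches in the Chek2 window, 3 in that of Cdkn1b and 1 each in the downstream windows of Cdkn2a and Cdkn2c. The upstream Cdkn2a window held 45 CG dinucleotides and the Chek2 window 21, against a median of 7 over all windows, and the downstream Cdkn2a window held 12. The shares over all windows were not matched for CG content. Windows of Ccne1 and Cdkn2b and the upstream Cdkn2c window held neither motif. The Chek2 window is built on an annotated start at 110839983, 183 bases inside the Chek2 row of the count table, which begins at 110839800. Its E2F match, at 110839831, and 1 of its CCAAT boxes, at 110839957, therefore lie inside that row, and the other CCAAT box, at 110839797, spans the row's first base.

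Expression is given in counts-per-million (CPM, scaled by TMM) when one gene is compared between hearts. It is given in reads per kilobase per M reads (RPKM) when genes are compared with each other. Over the analysed part of the genome the 7 libraries held 16402194 to 25190580 counts, and 3 counts corresponded to 0.115 to 0.189 CPM. The samples were whole tissue, so fewer cells of a type and less RNA per cell cannot be told apart. Heart muscle markers were abundant, with the 8 tested summing to 127400 to 146300 CPM in control hearts and 123200 to 153200 CPM in transferred hearts. Summed macrophage markers differed between the groups. Their 8 tested genes summed to 398 to 594 CPM in control hearts and 715 to 1029 CPM in transferred hearts. C1qb and Mrc1 were past the edgeR threshold (both higher), as were 0.235% of all tested genes in either direction. Mertk (log2 fold change 0.08) and Cd163 (0.88) overlapped between the groups. Of 9 T cell markers in the table, Trbc1 and Trbc2 had no counts in any heart, and the 4 tested summed to 37.8 to 50.5 CPM in control and 49.2 to 63.4 CPM in transferred hearts, with 0 past the edgeR threshold and 2 at an unadjusted p-value under 0.05, as had 12.4% of all tested genes. Those 2 went opposite ways: Ptprc, a gene of all leukocytes, was at 10.7 ± 2.50 CPM (SD, n = 4) in control and 23.2 ± 4.75 CPM (SD, n = 3) in transferred hearts (edgeR adjusted p = 0.0572), and Cd247, a T cell receptor chain named after its values were seen, at 3.65 ± 1.37 and 1.76 ± 0.637 CPM (edgeR adjusted p = 0.278). Cd28 was at 28.6 ± 3.79 and 26.1 ± 3.80 CPM and Cd4 at 2.69 ± 1.34 and 3.42 ± 1.21 CPM. Ptprc thus rose most, Cd4 was slightly higher by mean, and Cd247 and Cd28 were lower by mean in transferred hearts. Of the 5 markers under the count filter, Cd2 had 0, 1, 1 and 0 counts in control and 4, 3 and 5 in transferred hearts. It too is named after its values were seen, and Cd8a and Lck overlapped. All of these are counts of mouse genes, so they are no measure of the human T cells transferred.

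**Figure D1:**
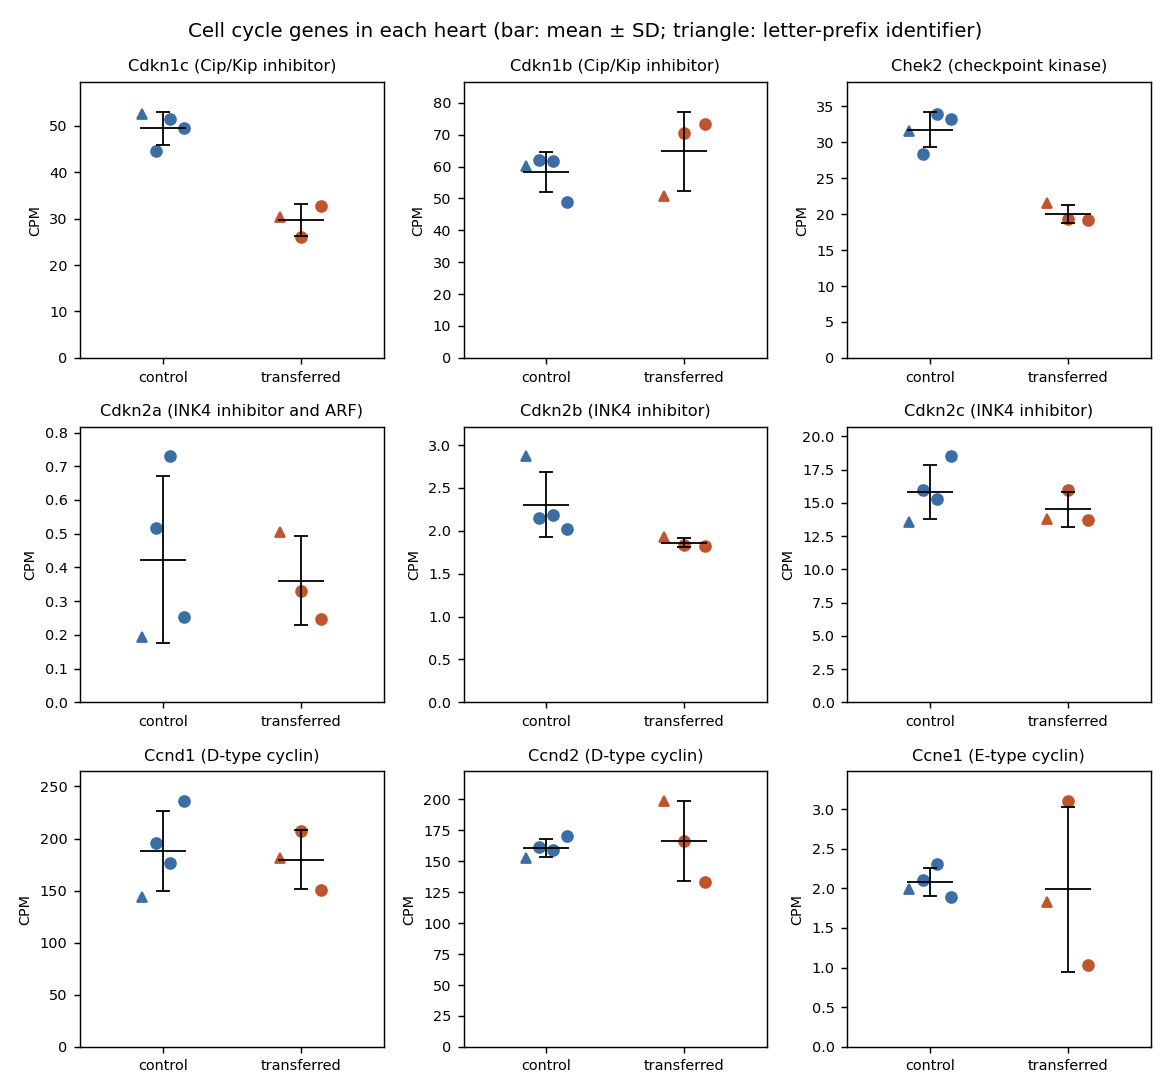
CPM of each cell cycle gene in the 4 control and 3 transferred hearts, with the mean and SD as bars. Triangles are the hearts whose animal identifier has a letter prefix. Transferred hearts lie below all control hearts for Cdkn1c, Chek2 and Cdkn2b, and the groups overlap for the other 6 genes.

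Among the Cip/Kip inhibitors, Cdkn1c was lower in every transferred heart and Cdkn1b was not. Cdkn1c encodes p57 and lies on chromosome 7, 143458339 to 143461059, on the minus strand (GRCm38). Control hearts 1 to 4 had 52.5, 44.5, 51.4 and 49.5 CPM of Cdkn1c, and transferred hearts 1 to 3 had 30.4, 26.01 and 32.8 CPM. The groups were far apart, with the lowest control heart above the highest transferred heart. Control hearts averaged 49.5 ± 3.53 CPM (SD, n = 4), and transferred hearts averaged 29.8 ± 3.45 CPM (SD, n = 3), 0.601 of that level. On the log2 scale the difference was -0.73 (standard error 0.11).

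Cdkn1b encodes p27, which holds non-dividing cells in G1 (chromosome 6, 134920401 to 134925525, plus strand). Control hearts had 60.2, 62.1, 61.8 and 48.9 CPM, and transferred hearts had 50.6, 70.4 and 73.4 CPM. Control heart 4 and transferred heart 1 were low, and the groups overlapped. The log2 fold change was 0.15, with a 95% interval from -0.15 to 0.46 (edgeR adjusted p = 0.717). With single hearts left out it ran from 0.05 (transferred heart 3) to 0.30 (transferred heart 1), with 0.08 without control heart 4 and 0.09 without transferred heart 2, and missed the threshold in each.

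Per length, the pair stood at the same level in control hearts. Cdkn1c was at 24.9 ± 1.77 RPKM (SD, n = 4) and Cdkn1b at 24.2 ± 2.62 RPKM (SD, n = 4), and their ranges overlapped. In transferred hearts Cdkn1c was at 14.97 ± 1.74 RPKM (SD, n = 3) and Cdkn1b at 26.9 ± 5.14 RPKM (SD, n = 3), with no overlap. The ratio of Cdkn1c to Cdkn1b was 0.868 to 1.22 in the control hearts and 0.447 to 0.727 in the transferred hearts. Since Cdkn1c was picked for its difference, this ratio is also a description. The sum of both inhibitors was 49.1 ± 3.02 RPKM (SD, n = 4) in control and 41.9 ± 5.33 RPKM (SD, n = 3) in transferred hearts, with ranges of 45.2 to 51.5 and 36.4 to 47.0 that overlapped.

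Chek2, on chromosome 5 (110839800 to 110874140, plus strand), was likewise lower in every transferred heart. Control hearts had 31.6, 28.4, 33.9 and 33.3 CPM, and transferred hearts had 21.5, 19.4 and 19.2 CPM. The spread within each group was small beside the gap between them. The averages were 31.8 ± 2.45 CPM (SD, n = 4) and 20.04 ± 1.29 CPM (SD, n = 3), which differ by -0.67 on the log2 scale (standard error 0.10).

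The 2 animals with a letter prefix in their identifiers are control heart 1 and transferred heart 1, and the labels do not say what the prefix stands for. Between them Cdkn1c was at 52.5 and 30.4 CPM and Chek2 at 31.6 and 21.5 CPM, with no test possible. Within the 5 hearts with numbers alone, the log2 fold change was -0.71 for Cdkn1c and -0.71 for Chek2 (edgeR adjusted p = 0.112 for each). With all 7 hearts and the identifier form as a covariate it was -0.74 for Cdkn1c and -0.67 for Chek2 (edgeR adjusted p = 0.0682 for each), so both calls were lost there too. In limma-voom both were lost as well (adjusted p = 0.0698 for Cdkn1c and 0.0703 for Chek2), with 0 of all 7667 genes called. Both calls were also lost without control heart 1, 2, 3 or 4 or without transferred heart 2, where the edgeR adjusted p-value ran from 0.0726 to 0.156, with the log2 fold change between -0.81 and -0.63 over all 7 such fits and both genes. Of all genes tested, the 5 fits that lost the calls passed 0 or 1. The macrophage markers given above were higher in sum in the transferred hearts, where Cdkn1c and Chek2 were lower, and their part in these differences was not tested.

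Hscb, which encodes a co-chaperone of iron-sulfur cluster assembly, starts on the opposite strand, at 110839793, with 6 bases between it and the beginning of the Chek2 row. The printed Chek2 window covers both of these positions. It was looked up after the values were seen. Hscb had 25.9, 21.9, 21.6 and 19.8 CPM in control hearts and 21.6, 20.3 and 17.8 CPM in transferred hearts. These ranges overlapped, and the log2 fold change was -0.16 with a standard error of 0.12 (edgeR adjusted p = 0.644). It was -0.08 without control heart 1 and -0.09 without transferred heart 3. There were 1.22 to 1.68 Chek2 counts per Hscb count in control hearts and 0.954 to 1.08 in transferred hearts. Chek2 was picked for its difference, so this ratio too is a description.

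The INK4 genes were expressed at lower levels, and none passed the edgeR threshold. Cdkn2c, which encodes p18 (chromosome 4, 109660876 to 109666756, minus strand), had 13.5, 16.0, 15.3 and 18.5 CPM in control hearts. Transferred hearts had 13.8, 16.0 and 13.7 CPM, inside the control range. The difference was -0.12 on the log2 scale, with a 95% interval from -0.43 to 0.18 (edgeR adjusted p = 0.782). With single hearts left out it ran from -0.20 (transferred heart 2) to -0.04 (control heart 4).

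Cdkn2b encodes p15, an inhibitor induced by TGF-beta signalling in many cell types (chromosome 4, 89306289 to 89311032, minus strand). Control hearts had 2.87, 2.15, 2.19 and 2.02 CPM and transferred hearts 1.93, 1.83 and 1.83 CPM. The groups did not overlap, but the lowest control heart was close to the highest transferred heart, and control heart 1 stood above the other hearts. The difference in Cdkn2b was -0.31 on the log2 scale, with a 95% interval from -0.85 to 0.23 (edgeR adjusted p = 0.660), and -0.18 without control heart 1. Of the 8 tested cell cycle genes, non-overlap in this direction was found for Cdkn1c, Chek2 and Cdkn2b, and it was found for 5.22% of all tested genes. Cdkn1c and Chek2 were picked by this comparison and Cdkn2b was added with its values known, so this is a description. Between them, the control hearts held 198 Cdkn2b counts and the transferred hearts 114, so counting error is part of the spread.

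Cdkn2a (chromosome 4, 89274473 to 89294619, minus strand) encodes the INK4 inhibitor p16 and, from the upstream start in another reading frame, the p53 activator ARF. The products share exons, so the counts do not separate them. There were 4, 12, 19 and 4 counts in control hearts and 10, 7 and 5 in transferred hearts, too few for the filter, so Cdkn2a was not tested. Control hearts together gave 39 counts, or 0.455 CPM (exact 95% Poisson interval 0.324 to 0.622), and transferred hearts 22 counts, or 0.359 CPM (0.225 to 0.544). The intervals, which cover counting error only, overlapped widely, and no difference was detectable at this depth.

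The cyclins differed little between the group means. Ccnd1, cyclin D1 (chromosome 7, 144929931 to 144939831, minus strand), had 143.8, 195.7, 176.3 and 236.2 CPM in control hearts and 181.5, 207.5 and 150.6 CPM in transferred hearts. All transferred hearts lay within the control range. The log2 fold change was -0.06, with a 95% interval from -0.43 to 0.31 (edgeR adjusted p = 0.913), and it turned to 0.065 without control heart 4 and to 0.050 without transferred heart 3.

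Ccnd2, cyclin D2 (chromosome 6, 127125162 to 127152188, minus strand), had 152.3, 161.8, 159.0 and 170.1 CPM in control hearts. Transferred hearts had 198.7, 166.6 and 133.6 CPM, 1 above, 1 within and 1 below the control range. The coefficient of variation was 4.57% in control and 19.6% in transferred hearts. For Ccnd2 the log2 fold change was 0.05, with a 95% interval from -0.22 to 0.32 (edgeR adjusted p = 0.908), and it was -0.10 without transferred heart 1.

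Ccne1, cyclin E1, which drives entry into S phase (chromosome 7, 38097984 to 38107490, minus strand), was near the low end of expression. Control hearts had 1.99, 2.11, 2.30 and 1.89 CPM, and transferred hearts had 1.82, 3.10 and 1.04 CPM. As for Ccnd2, the transferred hearts lay on both sides of the control range, with heart 2 highest and heart 3 lowest. Between the groups the log2 fold change was -0.06, with a 95% interval from -0.84 to 0.72 (edgeR adjusted p = 0.964). It was -0.54 without transferred heart 2 and 0.25 without transferred heart 3, so its direction rests on single hearts.

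Ccnd1 overlaps LTO1 over 818 bases and Ccnd2 overlaps the long noncoding RNA 9330179D12Rik over 2800 bases, each on the opposite strand. The strand setting of the counting is not given in the sources used here, so reads from the overlaps cannot be assigned with certainty.

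Ordered by RPKM in control hearts, Ccnd1 was highest at 49.9 ± 10.2 RPKM (SD, n = 4), 1.99 times Ccnd2 at 25.1 ± 1.15 RPKM (SD, n = 4). Ccnd2, Cdkn1c and Cdkn1b were neighbours whose ranges overlapped. Chek2 followed at 11.3 ± 0.873 RPKM, Cdkn2c at 7.02 ± 0.914, Cdkn2b at 1.66 ± 0.274, Ccne1 at 1.06 ± 0.0900 and Cdkn2a at 0.373 ± 0.218 RPKM (SD, n = 4 each). In this order 6 of the 8 neighbouring pairs did not overlap. In transferred hearts Chek2, at 7.12 ± 0.458 RPKM (SD, n = 3), overlapped Cdkn2c at 6.44 ± 0.573 RPKM (SD, n = 3), and Cdkn2b overlapped Ccne1. Over all hearts, Ccnd1 stood at the 84th percentile of tested genes by RPKM, Cdkn1b at 73.9, Cdkn1c at 70.1, Chek2 at 53.8 and Ccne1 at 19.3.

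**Figure D2:**
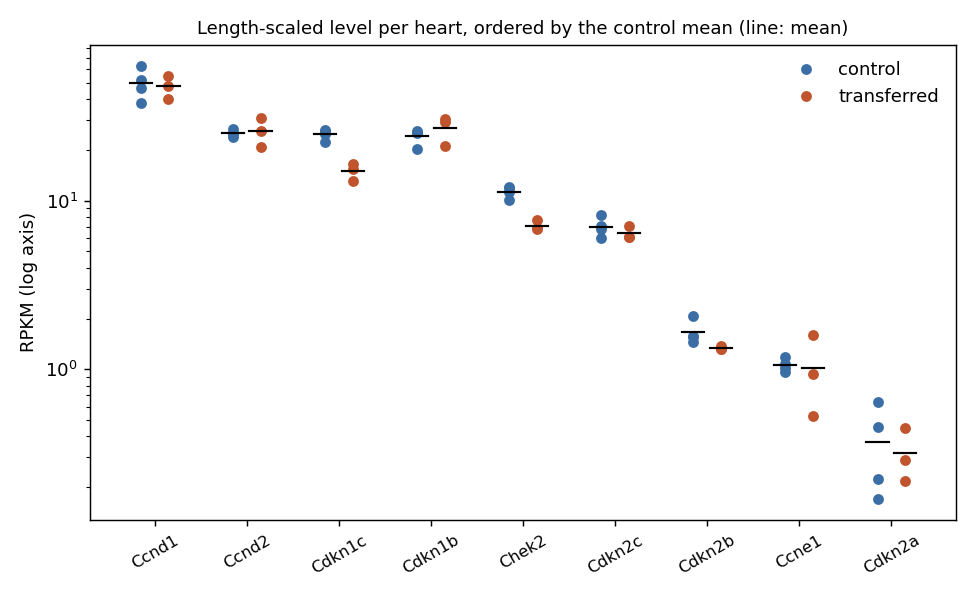
RPKM of each gene per heart on a log axis, ordered by the control mean, with lines at the group means. The D-type cyclins and Cip/Kip inhibitors lie above 13 RPKM in all hearts, and Cdkn2b, Ccne1 and Cdkn2a lie at or below 2.06 RPKM.

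The rest of the pathway, from 9 lists of cell cycle and chromosome 7 genes, gave 125 tested genes besides those above. In the edgeR test 0 of them passed after adjustment. Without adjustment 11 had a p-value under 0.05, 6 higher and 5 lower, or 8.80% against 12.4% of all tested genes. Those 11 genes sat in the checkpoint (2), p53 target (2), cyclin (1), kinase (1), replication and mitosis (1), INK4 regulator (2) and imprinted region (3) lists, with Gadd45a on 2 lists and 0 in the retinoblastoma and E2F list. DESeq2 called 4 of the 125, namely Gadd45a, Cdk18, Ephx1 and Tspan32, which is 3.20% of them, beside 252 of all 7667 genes or 3.29%. The median log2 fold change of the 125 was 0.002, and that of all tested genes was -0.002. With single hearts left out the median of these genes ran from -0.04 to 0.03, so its sign is not fixed.

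In the DNA damage checkpoint list 0 of 18 further genes passed, with 8 of the 18 below 0 and a median log2 fold change of 0.07. With single hearts left out the median ran from 0.03 (transferred heart 2 or 3) to 0.11 (control heart 3), and 5 of 18 were below 0 without control heart 4. The gene with the smallest p-value was Gadd45a, which encodes a growth arrest protein induced by DNA damage and is also on the p53 target list. It had 33.0, 37.8, 40.3 and 33.1 CPM in control hearts and 24.7, 26.1 and 23.9 CPM in transferred hearts. The groups did not overlap, and the log2 fold change was -0.54 with a standard error of 0.10 (edgeR adjusted p = 0.0702). With DESeq2 the adjusted p-value was 0.000749, and with all genes of at least 1 count it was 0.0298 in edgeR. Wee1, a kinase that restrains entry into mitosis, was at 32.1 ± 3.65 CPM (SD, n = 4) in control and 24.9 ± 3.17 CPM (SD, n = 3) in transferred hearts (edgeR adjusted p = 0.287).

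Of 14 p53 targets tested 0 passed, 6 lay below 0 and the median was 0.02. The sign of that median rests on single hearts: it was from -0.08 to -0.03 without control heart 1 or 4 or any 1 of the 3 transferred hearts, and 0.11 without control heart 3. Within the hearts with numbers alone it was -0.20, with 10 of 14 below 0. Beside Gadd45a, the smallest p-value was that of Ephx1, a microsomal epoxide hydrolase, at 67.5 ± 5.88 CPM (SD, n = 4) in control and 87.9 ± 11.2 CPM (SD, n = 3) in transferred hearts (edgeR adjusted p = 0.167; DESeq2 adjusted p = 0.0446).

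Of 10 further cyclins 0 passed and 3 lay below 0, with a median of 0.11, which ran from 0.07 (transferred heart 2 or 3) to 0.24 (transferred heart 1) with single hearts left out. Ccni, cyclin I, had the smallest p-value, at 365 ± 16.5 CPM (SD, n = 4) and 445 ± 80.5 CPM (SD, n = 3) (edgeR adjusted p = 0.328). Its log2 fold change of 0.29 was 0.14 without transferred heart 2. Of 7 cyclin-dependent kinases 0 passed and 3 lay below 0, with a median of 0.01. Without transferred heart 3, 6 of 7 were below 0 (median -0.10), without control heart 4, 5 of 7 (median -0.04), and without control heart 3 or transferred heart 1, 1 of 7 (medians 0.02 and 0.05). Cdk18, a PCTAIRE family kinase, had 44.8, 51.2, 46.3 and 50.7 CPM in control hearts and 38.3, 28.4 and 37.0 CPM in transferred hearts, with no overlap. Its log2 fold change was -0.48 with a standard error of 0.12 (edgeR adjusted p = 0.127; DESeq2 adjusted p = 0.0144). Cdk6, the partner of D-type cyclins on the list, was at 14.7 ± 2.69 CPM (SD, n = 4) and 14.2 ± 1.79 CPM (SD, n = 3). It is named outside the rule for genes.

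Of 10 retinoblastoma and E2F genes 0 passed, 3 lay below 0 and the median was 0.05. The median was 0.14 without control heart 3 and 0.15 without transferred heart 3, and 5 of 10 were below 0 without transferred heart 1. The 39 genes of replication and mitosis gave 0 calls, with 26 below 0, against 50.3% of all tested genes, and a median of -0.20. This lean depends on single hearts: without control heart 4, 16 of 38 were below 0 and the median was 0.03. Without transferred heart 3, 19 of 39 were below 0 and the median was 0.02. The lean grew to 32 of 39 (median -0.475) without transferred heart 2, and to 31 of 39 (median -0.30) without control heart 1. Control heart 4 was the highest control heart for 30 of the 39 genes, and transferred heart 3 the lowest transferred heart for 31. At the other ends, control heart 1 was the lowest control heart for 26 and transferred heart 2 the highest transferred heart for 29. The proliferation marker Mki67, named after its values were seen, had 7.63, 14.7, 10.4 and 24.4 CPM in control hearts and 10.7, 17.4 and 4.4 CPM in transferred hearts. The smallest p-value there was of opposite sign, that of the kinetochore gene Cenpf, at 74.4 ± 33.6 CPM (SD, n = 4) in control and 196 ± 115 CPM (SD, n = 3) in transferred hearts, which overlapped (edgeR adjusted p = 0.317). Transferred heart 2 was highest for Cenpf, at 328 CPM against 143 and 118 CPM in the others of its group, and without it the log2 fold change of 1.39 was 0.81. Of 12 regulators of INK4 genes and p27, 0 passed, and the median of -0.01 ran from -0.04 to 0.03 with single hearts left out. The polycomb genes Rnf2 and Phc1 had the smallest p-values, with log2 fold changes of 0.29 and -0.28 (edgeR adjusted p = 0.226 for each).

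**Figure D3:**
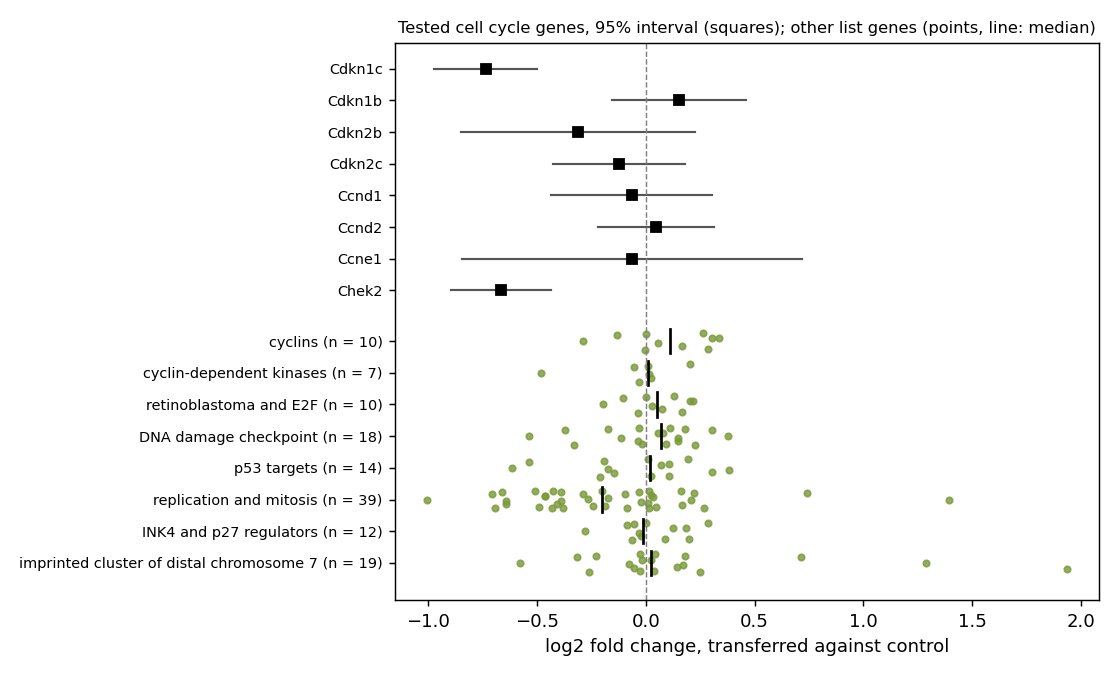
Log2 fold change of transferred against control hearts. Squares are the 8 tested cell cycle genes with 95% intervals, and points are the other tested genes of each list with a line at the list median. Cdkn1c and Chek2, chosen by this comparison, are at -0.73 and -0.67. Of the 8 list medians 7 lie within 0.12 of 0 and that of replication and mitosis is -0.20, but medians of several lists move or change sign when single hearts are left out, as given in the text.

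Cdkn1c lies in an imprinted region of distal chromosome 7, where it is expressed from the maternal copy and silenced on the paternal copy by the Kcnq1ot1 transcript. Of 25 genes listed there 20 were tested. Apart from Cdkn1c, 0 of 19 passed, 9 were below 0 and 10 above, and the median log2 fold change was 0.02, or -0.02 without transferred heart 1. Its nearest tested neighbours in the list were Slc22a18, a transporter gene 26.8 kb away between gene middles, at 0.71 with a standard error of 0.40, and Nap1l4, a histone chaperone gene 72.0 kb away, at -0.03 with a standard error of 0.07. Kcnq1, a potassium channel gene, was at a log2 fold change of 0.14 and Kcnq1ot1, antisense within it, at 0.17, with standard errors of 0.10 and 0.57 (edgeR adjusted p = 0.614 and 0.934). Reads of this pair cannot be told apart where strand was not used.

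Further away, Igf2, a growth factor gene expressed from the paternal copy, was at -0.03 with a standard error of 0.16 (edgeR adjusted p = 0.965). H19, a noncoding RNA, had 9.38, 14.4, 21.8 and 8.27 CPM in control hearts and 22.4, 62.6 and 14.0 CPM in transferred hearts, which overlapped (log2 fold change 1.29, or 0.43 without transferred heart 2; edgeR adjusted p = 0.422). Tspan32, a tetraspanin gene of blood cells, had 0.384 to 0.820 CPM in control and 1.29 to 2.38 CPM in transferred hearts, 1.93 higher on the log2 scale (edgeR adjusted p = 0.0764). The values of Tspan32 were 0.00474 with DESeq2 and 0.0297 with all genes of at least 1 count, both adjusted p-values. Mrpl23, a mitochondrial ribosomal protein gene, and Nadsyn1, an NAD synthetase gene, did not overlap between groups, at 0.18 and -0.32 (edgeR adjusted p = 0.301 and 0.368). For the others the log2 fold change was 0.25 for Lsp1, -0.58 for Tnnt3, 0.04 for Cd81 and 0.04 for Tssc4. It was -0.05 for Cars, -0.23 for Tnfrsf26, 0.02 for Tnfrsf22, -0.26 for Tnfrsf23, -0.08 for Osbpl5 and -0.02 for Dhcr7.

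**Figure D4:**
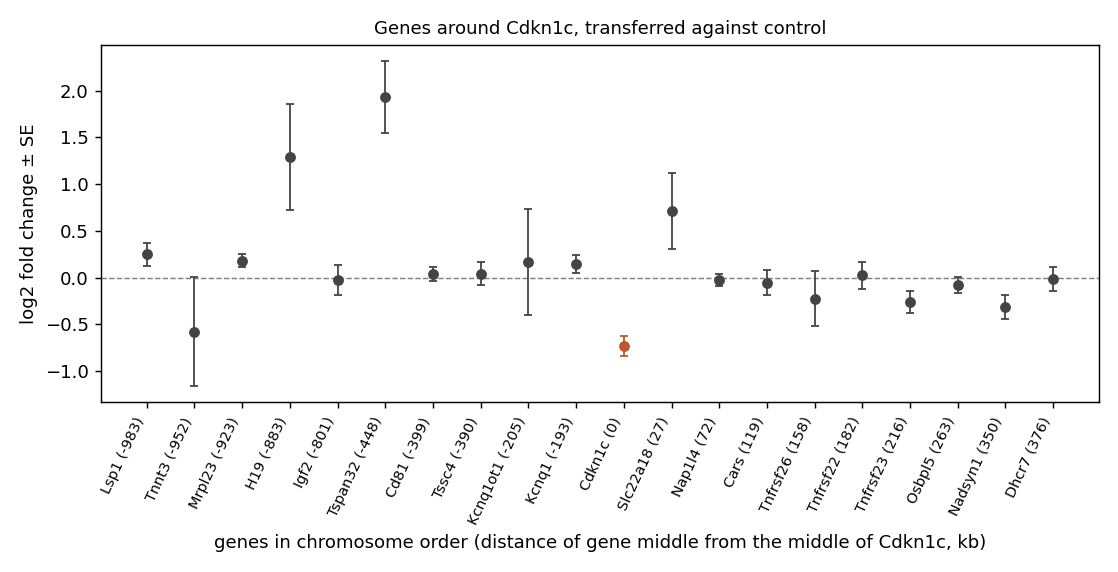
Log2 fold change with standard error of the 20 tested genes of distal chromosome 7, in chromosome order, with the distance from Cdkn1c in kb. Cdkn1c, at -0.73, is the lowest point, and its neighbours Slc22a18, Nap1l4 and Cars lie at 0.71, -0.03 and -0.05.

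Endothelial, mural, fibroblast and mesothelial markers gave 0 calls in the edgeR test, with 3 endothelial genes and 0 of the others at an unadjusted p-value under 0.05, as had 12.4% of all tested genes. Those 3 are named after their values were seen. Vwf, von Willebrand factor, was at 106 ± 21.9 CPM (SD, n = 4) in control and 239 ± 123 CPM (SD, n = 3) in transferred hearts, with no overlap (log2 fold change 1.17, or 0.67 without transferred heart 2; edgeR adjusted p = 0.200). Tie1, a receptor kinase, was at 237 ± 15.6 and 196 ± 9.82 CPM, also with no overlap (log2 fold change -0.28; edgeR adjusted p = 0.185). Emcn, endomucin, was at 109 ± 8.31 and 130 ± 17.9 CPM, with overlap (log2 fold change 0.26; edgeR adjusted p = 0.350). The 9 endothelial markers summed to 3171 to 3618 CPM in control and 3278 to 3900 CPM in transferred hearts, led by Fabp4 and Kdr. The 4 mural markers summed to 6328 to 8094 and 6548 to 7186 CPM, led by Des and Rgs5. Des alone was at 4923 ± 685 CPM (SD, n = 4) and 4611 ± 398 CPM (SD, n = 3), so this sum mostly follows Des. Whole tissue does not show which cells its reads came from. By mean, Des, Rgs5 and Kcnj8 were lower and Abcc9 higher in transferred hearts, each with overlap. The 8 fibroblast markers summed to 1819 to 2410 and 1717 to 2249 CPM, led by Col3a1 and Col1a2. The 3 mesothelial markers, led by Wt1 and Upk3b, summed to 14.1 to 41.2 and 22.5 to 30.04 CPM. In these 4 lists the summed levels overlapped between groups. Of the 2 tested genes on the adipocyte list, Thrsp passed, lower in transferred hearts, and Pnpla2 did not, while Plin1, Lep, Cidec and Retn were under the count filter. The heart muscle markers were led by Actc1 and Atp2a2, the macrophage markers by C1qa and C1qc and the T cell markers by Cd28 and Ptprc.

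Variation between hearts of one group was compared after removing the group means, over 7 hearts and 7003 genes with a mean of at least 1 CPM. These coefficients are descriptions, and all points share the same libraries and scaling. Cdkn1c and Chek2 varied together only loosely, with a Pearson r of 0.464. The closest pair among the 8 genes was Cdkn2c and Ccnd1, at 0.949, and the most opposed was Cdkn1b and Ccnd2, at -0.817. Across all genes Cdkn1c was most like Tpra1 (0.975), Wdr91, an endosomal protein gene (0.975), and Zim1, an imprinted zinc finger gene of proximal chromosome 7 (0.969). It was least like Ugt1a7c (-0.989), whose exons are shared with other Ugt1a genes, and Gabarapl1, an autophagy gene (-0.984). Chek2 was most like Tspyl3 (0.973), Sema3c, a secreted guidance factor (0.963), and Srgap3 (0.950), and least like Gpn2 (-0.966) and Sds (-0.958). Leaving out any single heart kept from 1 to 3 of these 10 genes in place, so the likeness rests on few hearts.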

How the data were processed

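Messenger RNA of 7 hearts was sequenced as paired reads of 75 nt, at a stated 55 M reads each. What the authors deposited is raw counts per gene. The submitters' processing notes list STAR 2.7.2b, cutadapt 2.5, featureCounts 1.6.4, DESeq2 1.22.2 and build GRCm38.p6, without roles. Of the values 4.63% have a fraction, so these deposited values were taken as estimated counts, then rounded. The table analysed covers chromosomes 1 to 7 and the start of chromosome 8. Other genes, among them further cell cycle genes, are not analysed here. The table also gives combined exon lengths, used for RPKM.

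Groups follow the treatment label, and replicate numbers only name hearts. Genes passing filterByExpr were scaled by TMM and tested with the edgeR 4.0.16 quasi-likelihood test (robust, R 4.3.3), with Benjamini-Hochberg adjustment at 0.05 over all 7667 genes. Intervals are 95%. Likeness used log2 CPM with a prior count of 2. Same-group pairs of libraries differed by chi-square values of 17.4 to 77.2 per degree of freedom, so none looked like a repeat. The procedure was tested on simulated counts. Alternatives were other scalings, filters, DESeq2 1.42.0, limma-voom (limma 3.58.1), unrounded counts, an identifier covariate and left-out hearts.

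The genes and lists were chosen with earlier results of these data known. Named are the 9 genes, of each pathway list the genes past the threshold or else the 2 with the smallest p-value if under 0.05 unadjusted, all tested genes of the imprinted list, the 3 genes most and 2 least like Cdkn1c and Chek2, and the 2 most abundant markers of each cell type.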

Additional observations from a re-analysis of the deposited data

Results flagged for a closer look

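The 4 control hearts were checked for a heart far from the other 3 in 28 genes named above. Of these 28, 4 were marked, against 1.40 expected by chance at about 1 in 20, and in all 4 the heart was control heart 4, the library with the fewest counts (16402194). Cdkn1b was at 48.9 CPM in control heart 4, against 60.2 to 62.1 CPM in the others. Tspan32 was at 0.820 CPM against 0.384 to 0.430 CPM, Ephx1 at 76.3 CPM against 63.9 to 65.5 CPM, and Nadsyn1 at 11.5 CPM against 9.938 to 10.03 CPM. Without control heart 4 the log2 fold change of Cdkn1b was 0.08, and those of Cdkn1c and Chek2 were -0.73 and -0.64.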

How the results depend on the processing

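Cdkn1c and Chek2 kept their direction in all 18 alternatives and passed the threshold in 10 of them. Against 2 of the 9 genes called, limma-voom, the identifier covariate and the hearts with numbers alone each gave 0, with 2, 2 and 3 at an unadjusted p-value under 0.05. Those alternatives called 0 of all 7667, 7667 and 7760 genes tested. In them the log2 fold change was -0.74, -0.74 and -0.71 for Cdkn1c and -0.66, -0.67 and -0.71 for Chek2. Leaving out single hearts gave 0 to 2 called. Over all genes, 0, 0, 1 and 0 were called without control heart 1, 2, 3 and 4, and 27, 0 and 140 without transferred heart 1, 2 and 3. The adjusted p-values in limma-voom were 0.0698 for Cdkn1c and 0.0703 for Chek2, and with the covariate (edgeR) 0.0682 for both. The cause was not tested. Among the pathway genes, against 0 called, all genes with at least 1 count gave 2 (1.53% of 131, beside 81 or 0.668% of all 12132), and DESeq2 gave 4 (beside 252 or 3.29% of all 7667). Left-out hearts gave 0 to 1, the 1 without transferred heart 3 (0.80% of 125, beside 140 or 1.80% of all 7787). The log2 fold change of Ccnd2 turned to -0.12 in the hearts with numbers alone. With single hearts left out it ran from -0.10 to 0.18 for Ccnd2, from -0.18 to 0.065 for Ccnd1 and from -0.54 to 0.25 for Ccne1. The likeness list of 10 genes kept from 1 to 3 of them when single hearts were left out. Low counts limit Cdkn2a, Cdkn2b and Ccne1. No paired analysis was possible because the groups share only 1 number in the sample titles, and replicate numbers here only name hearts.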
